A study of Drosophila melanogaster with 3 samples.

Results

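The regions described here are peaks of acj6 binding that lie inside an intron and close to a promoter without touching it. They were taken from the list of peaks that passed the IDR threshold (irreproducible discovery rate, a ranking of peaks by how well replicates repeat them) in the dm6 build of the Drosophila melanogaster genome. A peak was kept when its summit lay more than 500 and up to 5000 bp from the closest start of protein-coding transcription (transcription start site, TSS), inside the body of a protein-coding gene and outside every exon of one. Summits within 500 bp of the start of a non-coding RNA gene were left out. These conditions were met by 2135 peaks (25.9% of the list, exact 95% interval 24.9 to 26.8%) and not by the other 6113. The peaks that met them are called near-promoter intronic peaks below. The replicates were cut to as many of their strongest regions as the IDR list holds, and such regions made up 25.3 ± 0.0459% of these sets (SD, n = 3). The rule uses positions only and no measured strength. It does limit which genes can be hosts and which sequence is covered, so hosts and sequence are read below against the bases that meet the rule.

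The samples were 3 biological replicates of 1 group: whole white prepupae of both sexes from the transgenic strain acj6-GFP, which stably expresses acj6 with GFP at its C-terminus. The regulatory sequence that drives the tagged gene is not given in the sources used here, and the age of the animals is labelled unknown. Chromatin was sonicated and precipitated with an antibody against GFP, and all 3 replicate lists were called against 1 shared control file. Peak lists hold no read counts, so the depth behind each peak is unknown, and the whole-animal label could not be checked against marker expression. Acj6 is a POU-homeodomain transcription factor, best known from olfactory neurons, where it takes part in the choice of odorant receptors and of synaptic partners. POU proteins bind DNA through a POU-specific domain and a homeodomain, and many bind the octamer or AT-rich relatives of it. Introns of fly genes, and the long first intron above all, are a usual place for enhancers, and a gene with several promoters has introns that lie directly upstream of its internal ones.

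The sequences below show the summits of 6 of the 8 strongest near-promoter intronic peaks and of both peaks in acj6 itself, with 140 bp on each side and the summit as the middle base. Capitals mark the 6 words of 6 bases with the highest summit-to-control ratios on either strand, which are described by name further on. Of the 8 sequences, 6 hold at least 1 of these words.
ush (chr2L:480919-481199, plus strand): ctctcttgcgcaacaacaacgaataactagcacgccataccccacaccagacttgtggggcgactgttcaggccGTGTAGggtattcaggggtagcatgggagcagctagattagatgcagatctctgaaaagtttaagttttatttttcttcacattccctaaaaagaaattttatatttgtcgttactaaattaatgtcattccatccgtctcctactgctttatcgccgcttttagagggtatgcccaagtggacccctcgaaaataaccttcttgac
CG11050 (chr2L:6612569-6612849, plus strand): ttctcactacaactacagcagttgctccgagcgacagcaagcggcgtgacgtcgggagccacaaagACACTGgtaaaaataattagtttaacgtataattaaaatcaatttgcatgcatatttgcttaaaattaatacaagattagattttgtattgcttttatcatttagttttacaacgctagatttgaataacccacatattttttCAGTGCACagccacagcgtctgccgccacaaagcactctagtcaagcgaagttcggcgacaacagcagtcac
Lk6 (chr3R:11760911-11761191, plus strand): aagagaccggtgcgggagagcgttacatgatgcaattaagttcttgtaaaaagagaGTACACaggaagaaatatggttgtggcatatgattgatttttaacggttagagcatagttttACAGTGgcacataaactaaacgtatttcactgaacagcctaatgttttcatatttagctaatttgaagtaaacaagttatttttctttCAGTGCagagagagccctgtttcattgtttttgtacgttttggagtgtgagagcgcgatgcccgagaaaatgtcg
CG32772 (chrX:4910230-4910510, plus strand): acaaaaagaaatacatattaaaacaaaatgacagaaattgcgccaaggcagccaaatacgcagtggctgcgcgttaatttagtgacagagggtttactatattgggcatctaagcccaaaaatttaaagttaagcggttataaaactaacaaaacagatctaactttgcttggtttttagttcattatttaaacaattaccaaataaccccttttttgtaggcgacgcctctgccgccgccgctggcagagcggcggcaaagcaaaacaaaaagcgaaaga
CG9663 (chr2L:3302058-3302338, plus strand): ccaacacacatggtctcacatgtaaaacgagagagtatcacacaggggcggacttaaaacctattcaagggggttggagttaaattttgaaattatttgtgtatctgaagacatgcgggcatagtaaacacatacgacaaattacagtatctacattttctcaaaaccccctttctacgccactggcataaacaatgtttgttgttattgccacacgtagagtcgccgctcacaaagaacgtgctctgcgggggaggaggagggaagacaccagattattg
Trl (chr3L:14759360-14759640, plus strand): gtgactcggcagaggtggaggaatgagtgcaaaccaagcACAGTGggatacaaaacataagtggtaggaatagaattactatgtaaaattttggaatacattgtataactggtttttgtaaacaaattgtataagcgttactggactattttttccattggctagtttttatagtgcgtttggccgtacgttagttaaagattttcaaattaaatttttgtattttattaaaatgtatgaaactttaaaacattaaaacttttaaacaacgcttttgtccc
acj6 (chrX:15364563-15364843, plus strand): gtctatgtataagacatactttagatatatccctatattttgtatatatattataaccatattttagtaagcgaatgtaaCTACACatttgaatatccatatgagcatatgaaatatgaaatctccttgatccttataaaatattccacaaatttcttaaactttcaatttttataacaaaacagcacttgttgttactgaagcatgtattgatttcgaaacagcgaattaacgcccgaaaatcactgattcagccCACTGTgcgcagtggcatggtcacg
acj6 (chrX:15363726-15364006, plus strand): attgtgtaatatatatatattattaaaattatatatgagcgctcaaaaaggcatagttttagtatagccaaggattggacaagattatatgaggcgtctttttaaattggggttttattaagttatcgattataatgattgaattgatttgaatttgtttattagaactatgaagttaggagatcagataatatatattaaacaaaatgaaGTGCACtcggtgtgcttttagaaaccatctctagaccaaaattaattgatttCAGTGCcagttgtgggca

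In CG11050 the summit lay in an intron of 140 bp, with ACACTG 71 bp to its left and CAGTGC 72 bp to its right. In Lk6 the words stood 81 and 19 bp to the left and 69 bp to the right. The stronger acj6 peak had CTACAC 57 bp to the left and CACTGT, the reverse complement of ACAGTG, 119 bp to the right. The nearest word to any of these summits was 19 bp away, and none was found in the windows of CG32772 and CG9663.

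The strongest near-promoter intronic peak ranked 2 in the whole list. It lay in the first intron of ush, which encodes a zinc finger partner of GATA factors, 1371 bp upstream of the TSS of the neighbouring gene cbt, a zinc finger transcription factor. Its signal value, the authors' own score for a peak, was 3439, and it ranked 3, 3 and 2 in replicates 1, 2 and 3. The peak in CG11050 ranked 4 in the IDR list and in every replicate, with a signal of 3043. The peak in Lk6, a kinase of the translation factor eIF4E, had a signal of 2856 and ranked 8, 10 and 6. It lay in the first intron, 972 bp upstream of another TSS of the same gene. Ranks at this end of the list thus moved by a few places between replicates.

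The 20 strongest members ranked between 2 and 74 in the IDR list, and none of them ranked below 94 in any replicate. They included a peak in a first intron shared by HmgD and HmgZ, genes of chromosomal proteins with a high mobility group box, with a signal of 2284. A peak in Trl, which encodes the GAGA factor, had a signal of 1799, lay 1538 bp upstream of a TSS of Trl and ranked 49, 37 and 33 in replicates 1, 2 and 3. A peak in Tet, a dioxygenase of the TET family, had a signal of 1607 and lay 3103 bp upstream of an internal TSS in an intron of 54877 bp. The peak in pum, an RNA-binding repressor of translation, had a signal of 1485 and stood 2426 bp upstream of a TSS of pum. The peak in norpA, the phospholipase C of phototransduction, had a signal of 1460 and stood 1371 bp downstream of its TSS. The other hosts among the 20 were CG32772, CG12769, CG9663, CG3726, CG4496, CG32264, Mhcl, Hyls1 with chif, CG42327, Tlk and CG9837. CG9663 appeared with 2 summits, which share 1 deposited interval and hence the same ranks in the replicates.

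The acj6 gene held 2 near-promoter intronic peaks, both below the median signal of the members. The first had a signal of 172 and ranked 4410 in the IDR list and 7684, 4022 and 3819 in replicates 1, 2 and 3. The second had a signal of 130 and ranked 6022, against 6230, 5480 and 5009 in the replicates. They lay in an intron of 16558 bp, at 3642 and 2805 bp from the TSS of Pp1-13C, a protein phosphatase gene, and not nearest to a promoter of acj6. Both were covered in all 3 replicates.

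Across all 2135 members the signal ran between 94.2 and 3439, with a median of 183 and quartiles of 127 and 310. In strength they stood below promoter peaks and above intronic peaks farther out and intergenic peaks. The strongest 25% of each replicate's set took in 25.9 ± 0.350% of near-promoter intronic regions and 31.5 ± 1.05% of promoter regions, those with a summit within 500 bp of a TSS (SD, n = 3 each). The share was 19.03 ± 0.709% for intronic regions over 5000 bp from a TSS, 21.2 ± 0.628% for intergenic regions at the same distances as the members and 17.6 ± 0.845% for intergenic regions farther out. Regions near the start of a non-coding RNA gene, 226 peaks in the IDR list, had 29.9 ± 1.87%, above the members in 3 of 3 replicates. Near-promoter intronic regions lay below promoter regions by 5.61 ± 0.780 percentage points on average, a difference of -5.61, and above distant intronic regions by 6.88 ± 1.05 points. They lay above near intergenic regions by 4.75 ± 0.532 points and above distant intergenic regions by 8.32 ± 1.17 points. Each of these differences had the same sign in 3 of 3 replicates and exceeded its SD. Against all other regions pooled the difference was 1.21 ± 0.468 points. The exact two-sided permutation test over 3 replicates gave p = 0.25 for each, the smallest p that 3 replicates allow.

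**Figure D1:**
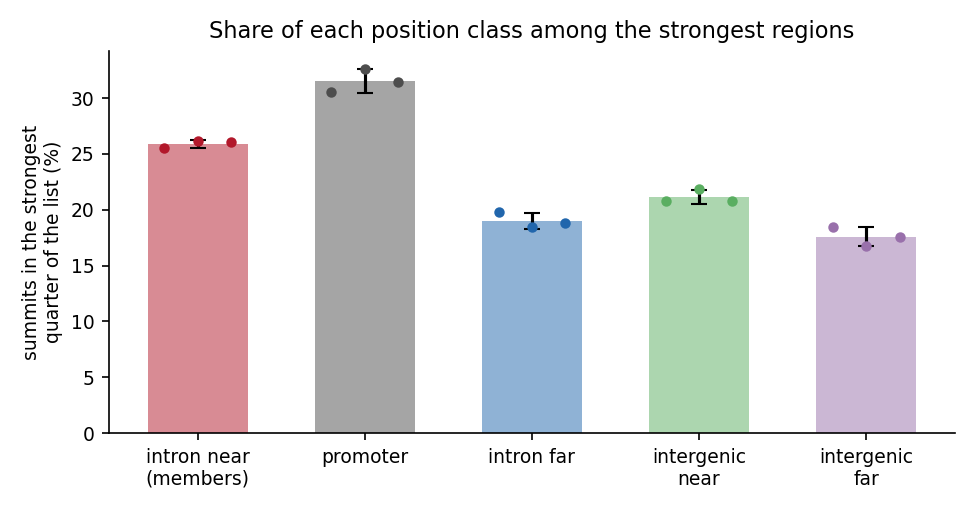
Share of the regions of each position class that fell in the strongest 25% of a replicate's set (vertical axis, percent); bars are means over 3 replicates, error bars are SD and points are single replicates. Near-promoter intronic regions, at 25.9%, stood below promoter regions, at 31.5%, and above the 3 other classes drawn; regions near non-coding RNA gene starts, at 29.9%, are not drawn.

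Near-promoter intronic peaks made up a nearly level share of the list at every strength. They were 24.3% of the strongest 10% of the IDR list and 24.8% of the weakest 10%. Promoter peaks made up 47.3% of the strongest 10% and 22.9% of the weakest. Among the 100 strongest peaks 26 were near-promoter intronic, and 5 of the first 20. Below the IDR threshold, 20504 regions of the pooled list overlapped no IDR peak, and 4801 of these met the same position rule (23.4%).

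Of the 2135 members, 1527 (71.5%) had 50% or more of their length under a region of the set in each of the 3 replicates, against 70.6% of all IDR peaks. The IDR list was made from these replicates, so the share describes the list and is no independent check of it. Replicates 1, 2 and 3 singly covered 87.1%, 87.6% and 88.1% of the members, and 11 members were covered in none. With all 30000 regions of each replicate, 2031 members were covered in all 3. Ranks of the covered members had Spearman correlations of 0.824, 0.830 and 0.829 between pairs of replicates (2047 to 2071 peaks a pair), against 0.812, 0.821 and 0.816 over all IDR peaks.

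How densely the peaks filled the sequence open to them was read against the bases that meet the position rule, called eligible bases. These came to 21.99 Mb, or 16.4% of the 6 arms. Near-promoter intronic peaks lay at 97.1 per Mb of eligible bases, with 94.8 ± 0.172 per Mb over the replicates (SD, n = 3). The density was 170.1 ± 8.62 per Mb within 500 bp of a TSS, 50.5 ± 2.43 in introns over 5000 bp away and 60.6 ± 1.95 in intergenic sequence at the same distances as the members. Intronic sequence near a promoter thus held more peaks per Mb than intergenic sequence at the same distance in 3 of 3 replicates, by 34.2 ± 1.84 per Mb (exact permutation p = 0.25, the smallest possible). Over all bases of the arms the density was 61.6 per Mb.

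Within the near-promoter introns the density was lower far from the TSS than near it and was higher in first introns. Up to 1000 bp from the TSS it was 156 ± 9.37 per Mb in first introns of any transcript and 66.6 ± 3.76 per Mb in later introns. Between 1000 and 1500 bp the values were 141 ± 2.79 and 52.95 ± 1.80 per Mb. Between 1500 and 2000 bp they were 123 ± 3.64 and 60.7 ± 6.20 per Mb, so the density in later introns did not fall at every step. Between 2000 and 3000 bp they were 106 ± 2.75 and 53.7 ± 3.88 per Mb, and between 4000 and 5000 bp 99.7 ± 0.635 and 48.8 ± 1.40 per Mb. First introns lay above later introns in every distance range and every replicate, and the groups of replicates did not overlap in any range. In first introns the lowest replicate up to 1000 bp had 146 per Mb and the highest between 4000 and 5000 bp 100.3 per Mb. In later introns the lowest replicate up to 1000 bp had 62.4 per Mb and the highest between 4000 and 5000 bp 49.6 per Mb.

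**Figure D2:**
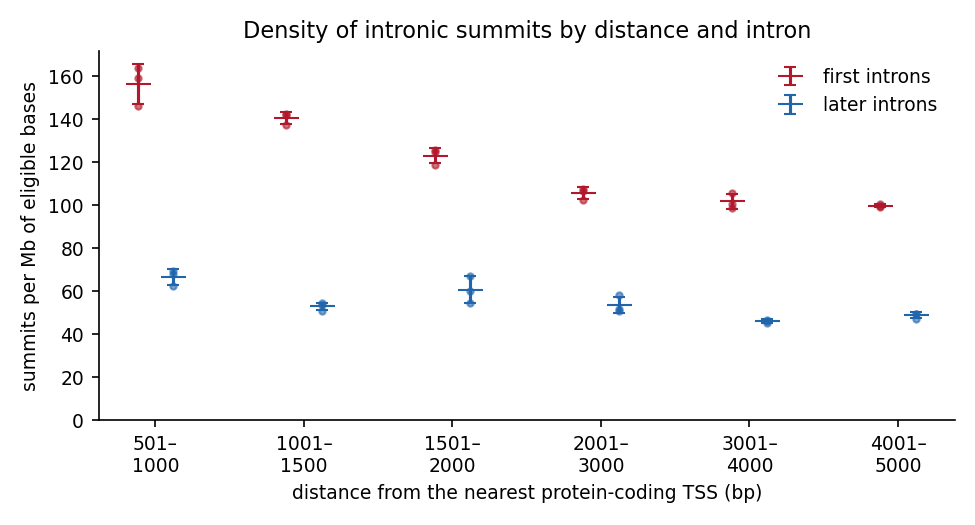
Summits per Mb of eligible bases (vertical axis) in 6 ranges of distance from the nearest protein-coding TSS (horizontal axis, bp), for first introns of any transcript (red) and later introns (blue). Points are the 3 replicates, dashes their mean and error bars the SD; first introns lay at 99.7 per Mb or more on average in every range and later introns at 66.6 per Mb or less.

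The median member lay 1792 bp from its nearest TSS, with quartiles of 1028.5 and 3039.5 bp, against a median of 2167 bp for eligible bases. In 1320 members (61.8%) the nearest TSS belonged to the host gene and the summit lay downstream of it, against 58.7% of eligible bases. In 508 members (23.8%) the summit lay upstream of a TSS of its own host gene, that is, before an internal promoter, against 16.7% of eligible bases. In the remaining 307 members (14.4%) the nearest TSS belonged to another gene, against 24.6% of eligible bases. Over the replicates these shares were 61.7 ± 0.734%, 23.9 ± 0.680% and 14.4 ± 0.332%. Summits before an internal promoter of their own gene were more common, and summits next to another gene's promoter less common, than the sequence offered in 3 of 3 replicates (exact p = 0.25, the smallest possible).

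First introns held 1620 members (75.9%; 76.8 ± 0.922% over the replicates), against 59.0% of eligible bases. Introns over 2000 bp held 1848 members (86.6%), against 75.8% of eligible bases. The host intron had a median length of 7511 bp, against 6230 bp for eligible bases, and the median summit lay 1313 bp from the nearest splice site, against 1100 bp. Annotated transposable elements held 5 members (0.234%; 0.240 ± 0.000436% over the replicates), against 4.13% of eligible bases. How reads with several matches were treated is not given in the sources used here. Bases marked as repeats or low complexity in the reference held 514 summits (24.1%), against 19.7% of eligible bases.

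By arm, the density was 90.5 per Mb on 2L, 94.7 on 2R, 99.7 on 3L, 91.9 on 3R and 114 on X. Chromosome 4 held 2 members, or 7.18 per Mb. The X value was 1.21 times that of the 4 large autosomal arms in the IDR list, and 1.10, 1.35 and 1.12 times in replicates 1, 2 and 3 (1.19 ± 0.139, SD, n = 3). The excess on X was present in 3 of 3 replicates and largest in replicate 2.

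At the distances searched, the nearest promoter often held a peak of its own. For 649 members (30.4%) the nearest TSS also had an IDR peak within 500 bp, against 182 of 856 intergenic peaks at the same distances (21.3%) and 16.1% of eligible bases. Over the replicates the share was 30.7 ± 1.48% for near-promoter intronic regions and 22.2 ± 0.828% for near intergenic regions (SD, n = 3 each). The difference of 8.49 ± 0.729 percentage points had the same sign in 3 of 3 replicates, and the exact permutation p was 0.25, the smallest possible. Against eligible bases the difference was 13.9 ± 0.958 points (exact p = 0.25). The share was 35.7% for members downstream of their own gene's TSS, 26.8% for members upstream of an internal TSS and 13.7% for members nearest to another gene's TSS. Members next to another gene's promoter were below the 18.8% found over all 19252 TSS positions.

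Near-promoter intronic peaks also lay close to other peaks. Another IDR summit stood within 1 kb of 731 members (34.2%, exact 95% interval 32.2 to 36.3%), against 26.1% of promoter peaks (24.3 to 27.9%) and 25.03% of distant intronic peaks (22.9 to 27.3%). For near intergenic peaks the share was 33.3% (30.1 to 36.6%) and for distant intergenic peaks 31.2% (28.2 to 34.3%), both with intervals that overlap the members' own. The median distance to the next summit was 1591 bp for members and 2032 bp for all IDR peaks. Neighbouring peaks share sequence and reads, so members are not independent of each other.

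The sequence around the summits had a marked and narrow fall in GC content. In the 201 bases around each summit GC content averaged 33.7%, against 39.1% in a window of the same width 1 kb away that also met the position rule and had no IDR summit within 500 bp (1618 pairs). Over the replicates it was 34.0 ± 0.381% at summits and 39.0 ± 0.0709% in control windows, a difference of -5.08 ± 0.338 percentage points (lower in 3 of 3 replicates, exact p = 0.25). In windows of 51 bp the GC content of members was 31.1% at the summit, 44.7% at 300 bp to the left, 45.0% at 300 bp to the right and 41.0% at 1000 bp. The AT-rich centre was thus flanked by shoulders richer in GC than sequence farther out. Summits of the other position classes averaged between 33.6% and 34.4%, so the low GC content is shared by all of them. The weaker pooled regions that met the rule had 36.8% at their summits and 39.2% in control windows (2971 pairs).

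**Figure D3:**
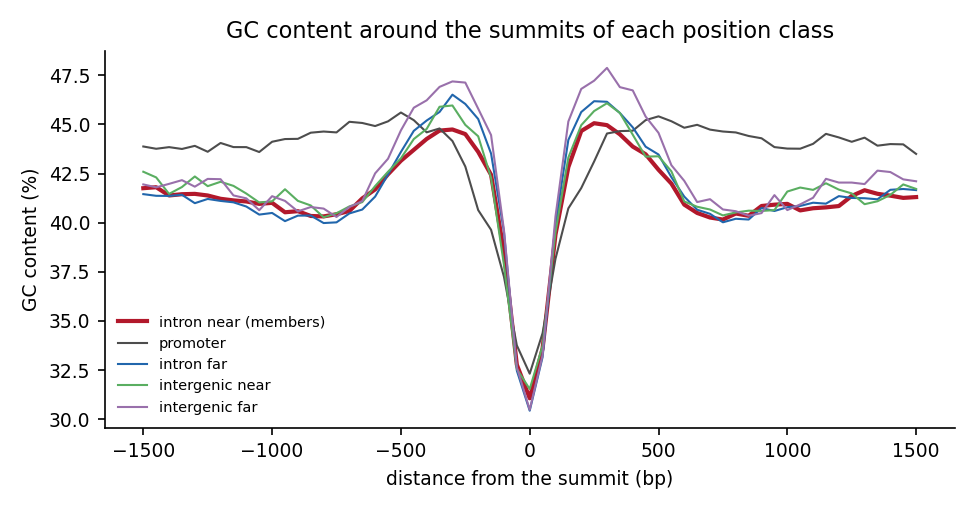
Mean GC content (vertical axis, percent, not starting at 0) in windows of 51 bp against distance from the summit (horizontal axis, bp), for the 5 main position classes of IDR peaks. Members (thick red line) fell to 31.1% at the summit and had shoulders of 44.7% and 45.0% at 300 bp to either side.

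Words of 6 bases were compared between summit windows and control windows by two-sided exact McNemar tests with Benjamini-Hochberg adjustment over all words, both strands counted together. At an adjusted p under 0.05, 292 words (14%) were more frequent at summits and 534 (25.7%) less frequent, and all of them moved the same way in 3 of 3 replicates. The windows come from 1 list and are no replicates, so the p-values speak of this list only. Words poor in G and C led the increases: 167 of the 228 words with at most 1 G or C were more frequent and 1 was less frequent. Of the 720 words with 4 or more G or C, 8 were more frequent and 399 less frequent.

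The words with the highest ratios were not the AT-rich ones. GTGCAC was present in 129 summit windows and 44 control windows, a ratio of 2.93 (exact McNemar adjusted p = 1.67e-09). ACACTG was present in 241 and 87 windows (ratio 2.77, exact McNemar adjusted p = 1.00e-17) and ACAGTG in 318 and 116 (ratio 2.74, adjusted p = 4.77e-24). CTACAC followed with a ratio of 2.41, CAGTGC with 2.35 and GTACAC with 2.24. All 8 words that hold the 5 bases CACTG on either strand were among those more frequent at summits. The lowest ratios were those of CCGCGG (0.148), CGCGCG (0.222), CCCGAG (0.243) and CCCGGC (0.266).

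To set GC content aside, 498 pairs were kept in which summit and control window differed by at most 4 percentage points in GC, a choice made after seeing the data (34.8% at summits, 35.2% in controls). There 20 words were more frequent (0.962%) and 1 less frequent (0.0481%), CCATAA, present in 46 summit windows and 90 control windows. GTGCAC had a ratio of 4.56, ACACTG of 4.05, ACAGTG of 3.07 and CAGTGC of 2.91 (exact McNemar adjusted p = 0.00115, 1.28e-07, 6.94e-07 and 9.83e-07). AGGGTA, present in 55 and 19 windows, had a ratio of 2.89.

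All but 1 of the leading words had a preferred orientation about the summit. In the band 61 to 140 bp from it, ACAGTG occurred 191 times on the left and 55 times on the right, while its reverse complement CACTGT occurred 52 times on the left and 230 times on the right. In a band of the same width that ends 1000 bp out, ACAGTG occurred 38 times on the left and 35 times on the right. ACACTG occurred 144 times on the left and 43 on the right, and its reverse complement CAGTGT 43 times on the left and 127 on the right. CTACAC occurred 87 times on the left and 26 on the right, GTACAC 86 and 34 times. In the band that ends 1000 bp out, CTACAC occurred 20 times on the left and 32 on the right, GTACAC 21 and 39 times. Their reverse complements GTGTAG and GTGTAC occurred there 14 and 14 times and 25 and 31 times. In the band 61 to 140 bp from the summit, CAGTGC had 60 occurrences on the left and 167 on the right. Its reverse complement GCACTG occurred 151 times on the left and 59 on the right. The side of a word thus depends on the strand by which it is named. GCACTG and ACACTG, which both end in CACTG, were more frequent on the left. CACTGT, which begins with CACTG, was more frequent on the right. GTGCAC equals its own reverse complement, so it has no orientation, and occurred 110 times on the left and 101 on the right. The sides of all oriented words were the same in 3 of 3 replicates. These counts were made after the words had been chosen on the same windows and are a description.

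**Figure D4:**
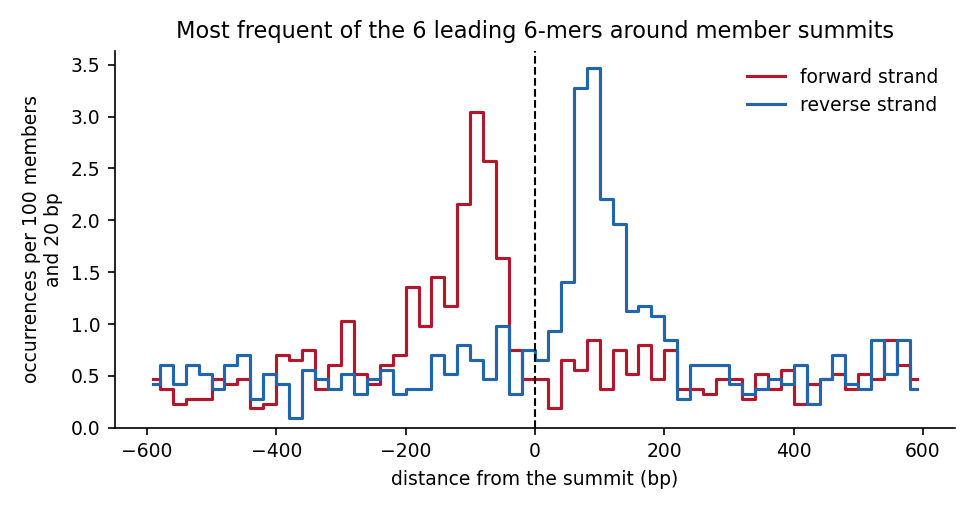
Occurrences per 100 members and 20 bp (vertical axis) of the most frequent of the 6 leading words against distance from the summit (horizontal axis, bp), on the forward strand (red) and the reverse strand (blue). The forward form was most frequent 81 to 100 bp left of the summit, with 3.04 per 100 members, and the reverse form 80 to 99 bp right of it, with 3.47 per 100 members.

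The mirrored arrangement was not limited to near-promoter introns. Counting ACAGTG on the left together with CACTGT on the right, 79.7% of all occurrences in the band were so arranged in members, with 79.2 ± 1.01% over the replicates (SD, n = 3). The share was 72.0 ± 3.04% at promoter regions, 74.9 ± 2.06% in distant introns, 65.8 ± 1.34% in near intergenic regions and 75.9 ± 2.41% in distant intergenic regions. The word and the band were chosen on the windows of the members, so the classes are set side by side without a test.

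The 5 bases CACTG, read on either strand, were found within 100 bp of 994 member summits (46.6%), and 314 members (14.7%) had 2 or more. In the paired windows the share was 47.1 ± 1.56% at summits and 25.7 ± 0.351% in control windows over the replicates (SD, n = 3). By strength, the share was 51.4%, 47.9%, 44.2% and 42.7% in 4 parts of 25% of the members, strongest to weakest. Over the replicates it was 51.5 ± 0.473%, 47.8 ± 2.75%, 44.2 ± 0.377% and 43.3 ± 2.25% (SD, n = 3). In replicate 2 the weakest part, at 45.8%, lay above the part before it, at 43.9%. The weaker pooled regions that met the rule had 34.2%. In windows of 51 bp the share of members with CACTG was 7.54% at the summit itself, 18.5% at 100 bp to the left, 19.4% at 100 bp to the right and 8.62% at 1000 bp to the right. CACTG was nearly even between the strands where it was most frequent. It had 105 forward and 98 reverse occurrences 81 to 100 bp left of the summit, and 110 and 103 at 80 to 99 bp right. Closer in it was less even, with 74 and 118 at 61 to 80 bp left and 100 and 85 at 60 to 79 bp right. The core was chosen after the word counts were seen, so these values are given without a test. Among position classes the share ran between 41.6% at promoter peaks and 50.4% at distant intronic peaks.

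Known recognition sequences were looked for in the same windows on both strands. Of 25 motifs, 1 was more frequent at summits (4%) and 0 less frequent (0%) at an adjusted p under 0.05 by the exact McNemar test. At an unadjusted p under 0.05 the counts were 3 more frequent and 2 less frequent. The motif that passed was a run of 7 A, found in 494 summit windows (30.5%) and 358 control windows (22.1%, exact McNemar adjusted p = 2.34e-06), higher in 3 of 3 replicates. In the pairs of like GC content it was found in 136 summit windows (27.3%) and 125 control windows (25.1%), and the call was lost (exact McNemar adjusted p = 0.965). The octamer ATGCAAAT, the classical POU site, was found in 59 summit windows (3.65%) and 67 control windows (4.14%, exact McNemar adjusted p = 0.810). The homeodomain core TAATTA was found in 298 and 281 windows (exact McNemar adjusted p = 0.759). A TATA box (TATAAAAG) was found in 48 and 26 windows, and a Su(H) site (GTGGGAA) in 27 and 50 (exact McNemar adjusted p = 0.0973 for both). The other motifs searched, none past the threshold, were a short POU form (ATTAATGAG) and a partial POU site (ATGCAT), the E-box of Myc (CACGTG), that of proneural factors (CAGCTG) and that of Twist (CATATG), and the sites of GAGA factor (GAGAGAG), DREF (TATCGATA), AP-1 (TGANTCA), CRE (TGACGTCA), Zelda (CAGGTAG) and GATA factors (AGATAAG). They also took in M1BP (GGTCACAC), TEAD (ACATTCC), Runx (AACCACA), forkhead (TGTTTAC), PAR bZIP (TTATGTAA), ETS (ACCGGAAG), nuclear receptors (AAGGTCA), a dinucleotide repeat (CACACACA) and a heat shock factor site (GAANNTTC). Of these, TTATGTAA (32 and 17 windows) and CAGCTG (95 and 129 windows) passed an unadjusted p under 0.05 alone. A missing match says only that these letters are not in the window.

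Of 13945 protein-coding genes, 9156 had eligible bases, and 1141 of them (12.5%) held a near-promoter intronic peak. Of these, 629 held 1 peak, 512 held 2 or more, and 81 held 5 or more, 529 members in all. The 120 members inside overlapping genes were counted for each host. The gene with the most was shn, a zinc finger protein of the Dpp pathway, with 15 members in the IDR list and 17, 17 and 13 in replicates 1, 2 and 3. Its strongest peak ranked 132 and lay 1325 bp downstream of a TSS of shn. CG1677 had 13, and its introns surround other genes, so that the nearest TSSs of its 3 strongest members were those of Dok, brk and unc-119. Svil, a supervillin gene, had 12. Tlk (a Tousled-like kinase), tou and siz (an exchange factor for Arf proteins) had 11 each.

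Host genes were then read by function, in 13 lists, as members per Mb of the list's own eligible bases over the same in all protein-coding genes. The lists overlap in a few genes (sgg, vri, fz, ttk, br and Trl), and no set test was made. Genes of EGF receptor and Ras signalling, which passes growth and fate signals through a kinase cascade, were the densest: 16 of 24 genes with eligible bases held 43 members, 2.90 times the density of all genes (3.29 ± 0.345 over the replicates). The receptor gene Egfr held 7 members in the IDR list and 7, 6 and 8 in the replicates. Its strongest peak had a signal of 522 and ranked 796, 7863 and 862. These ranks belong to replicate regions that cover enough of the peak's length, so a shifted or narrower region would be passed over. The rank of 7863 thus does not show weaker binding in replicate 2, which was not tested. Raf, the kinase below Ras, held 5 members, the strongest with a signal of 767 and ranks of 504, 358 and 362. The ETS repressor gene aop held 6, the strongest with a signal of 662 and ranks of 522, 527 and 576. The ETS activator gene pnt held 3, kay (the fly Fos) and puc (a phosphatase of Jun kinase) 4 each, and msn, a kinase upstream of Jun kinase, 3. The list thus takes in genes of Jun kinase signalling, and its ratio is not that of EGF receptor and Ras genes alone. The ligand genes spi and vn held 2 and 1, in 3.85 and 4.58 kb of eligible bases, against 16.2 kb in Egfr and 13.99 kb in Raf.

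Genes of Wingless, Hedgehog and Dpp signalling had 2.27 times the density of all genes (2.23 ± 0.155), with 59 members in 17 of 36 genes. After shn, arr, the co-receptor of Wingless, held 7 members and the receptor gene fz2 held 5. Mad, the transcription factor of the Dpp pathway, held 4. The receptor genes fz, ptc and tkv, the ligand gene Wnt2 and nkd, an inhibitor of Wingless signalling, held 3 each. The ligand genes Wnt4 and Wnt10 held 2 each and dpp held 1. Hippo and planar polarity genes had a ratio of 2.35 (2.07 ± 0.1498; 24 members in 9 of 22 genes), with pk at 5 and the kinase gene wts at 4. The strongest peak of this list was in crb, an apical polarity gene, with a signal of 1259 and ranks of 113, 110 and 84. Notch and proneural genes had a ratio of 1.51 (1.58 ± 0.0623; 15 members in 7 of 20 genes), with a peak in neur, a ubiquitin ligase for Notch ligands, at a signal of 1103 and ranks of 131, 138 and 174.

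Chromatin regulators had a ratio of 2.36 (2.16 ± 0.202), with 25 members in 11 of 50 genes, among them HDAC4 with 5 and Trl and kis with 3 each. The autophagy and cell death list had a ratio of 2.05 (2.10 ± 0.453), and it rested on 8 members in 3 of 27 genes, 5 of them in Diap1, an inhibitor of caspases. Its share of genes with a member, 11.1%, was below the 12.5% of all genes. BTB zinc finger genes had a ratio of 1.58 (1.62 ± 0.0525; 31 members in 10 of 16 genes), led by psq with 10. Clock genes had a ratio of 1.68 (1.92 ± 0.253; 14 members in 5 of 13 genes). Insulin, TOR and growth genes had a ratio of 1.39 (1.47 ± 0.133; 28 members in 11 of 34 genes).

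White prepupae form at a pulse of the steroid ecdysone, and genes of its response were listed for that reason. They had a ratio of 1.59 (1.46 ± 0.0584), with 41 members in 15 of 28 genes. The bZIP gene vri held 7, the nuclear receptor gene Eip75B held 6, and the receptor gene EcR held 3. The strongest peak was in Eip78C, another nuclear receptor gene, with a signal of 1357 and ranks of 84, 100 and 59. ImpL2, which encodes a secreted insulin-binding protein, had a peak with a signal of 1081 and ranks of 155, 114 and 199. Eip93F held 1 member at a signal of 105, present in replicate 2 alone among the replicate sets.

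The lists tied to acj6's known roles in neurons were the sparsest. Transcription factors of neuron identity had 0.410 times the density of all genes (0.411 ± 0.0545), with 16 members in 10 of 55 genes, and 0.253 times among the stronger 50% of peaks. Axon guidance and synaptic partner genes had a ratio of 0.695 (0.618 ± 0.0991), with 48 members in 19 of 56 genes. Both lay below 1 in 3 of 3 replicates, and cytoskeleton and muscle genes lay at 1.01 (1.04 ± 0.0908). The cytoskeleton ratio was between 0.761 and 0.859 among stronger peaks and among members covered in 2 or all 3 replicates, so its side of 1 depends on the set. Within the neuronal lists the share of genes with a peak was still above the 12.5% of all genes, at 18.2% and 33.9%. The neuron identity list has 0.402 Mb of eligible bases in 55 genes and the axon guidance list 0.711 Mb in 56 genes, against 21.99 Mb in 9156 genes. The leading peaks were in grh (signal 716; 4 members), zfh1 (648; 1 member), trio (1066; 4 members), and Ptp10D, a receptor phosphatase (824; 2 members). The adhesion gene kirre held 9 members in 100.5 kb of eligible bases and Ten-a, a teneurin of synaptic matching, 5 in 80.9 kb. Whole animals mix neurons with many other cells, and fewer cells of a type and weaker binding per cell cannot be told apart in them.

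**Figure D5:**
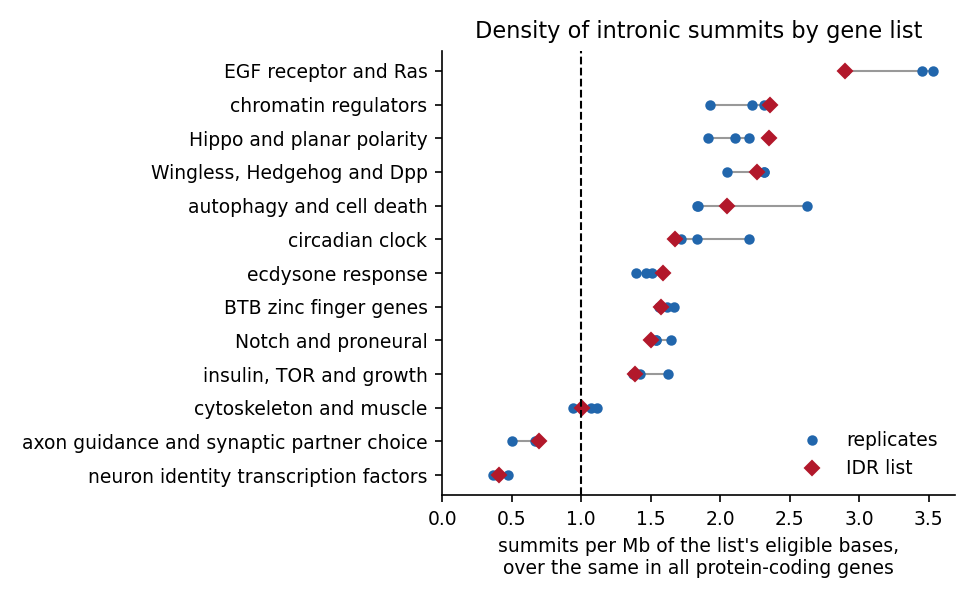
Members per Mb of the eligible bases of each gene list, divided by the same value over all protein-coding genes (horizontal axis); diamonds are the IDR list, circles the 3 replicates and the dashed line marks the value of all genes. The EGF receptor and Ras list, which also holds genes of Jun kinase signalling, was highest at 2.90, and neuron identity transcription factors were lowest at 0.410.

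The limits of the rule parted peaks at nearly the same distance from a TSS. Just inside the lower limit, peaks in aru and in ebd2 with CG32436 lay just over 500 bp from a TSS with signals of 747 and 131. Just outside it, peaks in CG31612 and in Ptp61F with ru lay 500 and 499 bp away with signals of 1003 and 190. Just inside the upper limit, peaks in dachs and boi lay 4988 and 4991 bp away with signals of 225 and 210. Just outside it, peaks in CadN and tara lay 5001 and 5007 bp away with signals of 152 and 233.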

How the data were processed

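ChIP-seq peak lists of 3 biological replicates of 1 group were used. Per the file headers and deposited notes, every replicate has a list of 30000 regions, called from that replicate's own alignment to dm6 against 1 shared control file, and the authors drew the IDR list from the replicate lists and a pooled list. The deposited signal value of a region is the peak caller's own and was used only to rank regions within a list. Neither the software that aligned reads and called peaks nor the IDR cutoff is stated in the sources used here. Lists in the older build dm3 were not used, and read depth is unknown.

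Positions were set against the Release 6 genome of NCBI and the Ensembl release 115 annotation, in dm6 coordinates. Replicates were compared over their strongest 8248 regions, with a region counted as covered at 50% of its length. Eligible bases are all bases that meet the position rule. Shares of them by nearest TSS were read at every 25th base. Means ± SD are over 3 replicates, and differences were tested with an exact two-sided sign-flip permutation test, whose smallest p is 0.25. Words of 6 bases (2080) and motifs (25) were tested across all words or all motifs by exact McNemar tests with Benjamini-Hochberg adjustment. The control window was 1 kb to the right of a summit, else to the left. Shares carry exact 95% binomial (Clopper-Pearson) intervals, for counting error alone.

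The rule for naming genes took acj6, the 20 strongest members, up to 3 of the strongest in each gene list, the 6 genes with the most members and the peaks nearest the distance limits. Other list genes and the core CACTG were named after their values were seen. The members and lists were chosen with earlier results of these data known. Python 3.11.15, numpy 2.4.6, scipy 1.17.1 and matplotlib 3.10.9 were used, and the tests were tried on simulated data.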

Additional observations from a re-analysis of the deposited data

How the results depend on the processing

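With a lower limit just over 250 bp or 1000 bp the share of IDR peaks was 30.3% or 19.8%, at 104 or 90.0 per Mb. With an upper limit of 3000 bp or 10000 bp it was 19.3% or 35.1%, at 107 or 88.9 per Mb. Without the exclusion of non-coding RNA starts it was 26.4%. It was 26.2% both among the stronger 50% of peaks, at 49.1 per Mb, and among peaks covered in all 3 replicates, at 69.4 per Mb, where fewer peaks enter the density. The share of members covered in all 3 replicates was 76.2% at an overlap of 25%, 46.2% at 80% and 95.1% with all 30000 regions, and it was between 78.0% and 78.5% with 1 replicate left out. Among members covered in all 3 replicates, 31.9% were in the strongest 25% and 78.1% in first introns. Among the stronger 50%, 77.7% were in first introns.

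The difference in GC content was -7.09 points with the control always to the right, -7.52 in windows of 50 bp a side and -2.88 in windows of 150 bp. A control to the right was taken for all 2135 members, against 1618 pairs in the main setting. It was thus not held to the conditions set for the main control windows. With the control always to the right, 4 motifs were more and 3 less frequent, and 819 words were less frequent. Windows of 50 or 150 bp a side gave 1 motif that was less frequent, and 150 bp gave 301 words that were less frequent. Members among the stronger 50% gave 183 and 272 words, more and less frequent. Pairs of like GC content gave 0 motifs that were more and 0 that were less frequent, and 20 and 1 words. At an unadjusted p under 0.05 by the exact McNemar test there was 1 motif. It was the nuclear receptor site AAGGTCA, less frequent at summits, with 7 summit and 18 control windows. Leaving out a replicate gave between 1 and 2 motifs that were more frequent.

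Density ratios of the lists among the stronger 50% were 1.38 for ecdysone, 1.76 for insulin and growth, 3.599 for EGF receptor and Ras, 1.79 for Notch, 2.51 for Wingless, Hedgehog and Dpp, 2.37 for clock, 2.80 for chromatin and 2.01 for BTB genes. They were 0.573 for axon guidance, 0.253 for neuron identity, 2.53 for autophagy and 0.828 for cytoskeleton. Among members covered in all 3 replicates they were 1.41 for ecdysone, 1.73 for insulin and growth, 3.68 for EGF receptor and Ras, 1.82 for Notch, 2.52 for Wingless, Hedgehog and Dpp, 2.01 for clock, 1.78 for BTB and 0.761 for cytoskeleton genes. Over members covered in 2 replicates, with each replicate left out in turn, they lay between 1.34 and 1.44 for ecdysone, 1.59 and 1.71 for insulin, 3.36 and 3.63 for EGF receptor and Ras, and 1.66 and 1.80 for Notch. The ranges were 2.41 to 2.50 for Wingless, Hedgehog and Dpp, 1.83 to 1.99 for clock, 1.69 to 1.76 for BTB, 0.575 to 0.664 for axon guidance and 0.8003 to 0.859 for cytoskeleton genes. The cytoskeleton ratio thus passed below 1. Apart from the settings whose construction removes or adds peaks or pairs, the cause of these shifts was not tested. The remaining 89 values moved by less than the spread between replicates, or by less than 1.5 times for counts.

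No paired analysis was possible because the series has 1 group. With no read counts, differences between weak peaks cannot be set against depth, 3 replicates cannot give a p below 0.25, and the control was shared.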
